A study of Mus musculus with 4 samples.

Results

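Peaks in 6 densely filled stretches of the mouse genome are described here across 4 ChIP-exo peak lists of Sox2 proteins. The stretches are an unplaced contig, chrUn_JH584304, taken whole, and 5 windows of 100 kb (mm10): chr9:3000001-3100000, chr2:98600001-98700000, chr14:19400001-19500000, chr11:3100001-3200000 and chr8:20300001-20400000. A peak belonged to them when its centre lay inside, which held for 2117 of the 29255 peaks of the 4 lists (7.24%). The stretches were chosen by the number of peaks in these same lists, so their counts, shares and spacing are a description and no test is given for them.

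Each list comes from 1 library of D3 mouse embryonic stem cells, a line of pluripotent cells, and each library is a group of its own. Halo-Sox2M carries changes labelled M47G, F50 and M51G, Halo-Sox2D keeps residues 1 to 120 of Sox2, and Halo-Sox2 carries no labelled change. These fusions to HaloTag, a tag that binds a resin covalently, were isolated on HaloLink resin, while the library labelled Sox2, called endogenous Sox2 here, was isolated with an antibody to Sox2. How the fusions were expressed, and whether endogenous Sox2 was still made beside them, is not given in the sources used here. With 1 library in each group there were no replicates, and no difference was tested for significance. There were 1711 Halo-Sox2M, 13833 Halo-Sox2D, 6558 Halo-Sox2 and 7153 endogenous Sox2 peaks, each 1 to 20 bp wide. Depth is unknown, because a list gives places without read numbers or scores. Intervals are 95% Wilson intervals for shares and exact binomial intervals for ratios of counts. For a count of 0 the share said to be allowed is instead 3 peaks over the total, which is lower than the Wilson limit. Such intervals reflect counting error alone, and they are too narrow where close peaks depend on each other.

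Sox2 is a transcription factor whose HMG box bends DNA from the minor groove, and it acts with Oct4 in pluripotent cells. Mouse centromeres are flanked by the major satellite, long arrays of an AT-rich unit repeated head to tail, of which genome assemblies hold only fragments. Reads from such arrays, or from other sequence with many near-identical copies, can match several places equally well, and stretches of this kind are known to gather reads in ChIP experiments on many proteins. No sequence of the 6 stretches was used here, so their repeat content was not checked. How reads with several matches were placed is not given in the sources used here. An input library, or one from resin without a fusion, was not analysed here.

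The numbers of peaks in the 6 stretches differed much less between the 4 libraries than the lengths of their lists. There were 536 Halo-Sox2M peaks, 430 Halo-Sox2D peaks, 521 Halo-Sox2 peaks and 630 endogenous Sox2 peaks, so the highest count was 1.47 times the lowest. Outside the stretches the counts were 1175, 13403, 6037 and 6523 in the same order of libraries, and the highest was 11.4 times the lowest. The stretches therefore took 31.3% of the Halo-Sox2M list (29.2 to 33.6%), 3.11% of the Halo-Sox2D list (2.83 to 3.41%), 7.94% of the Halo-Sox2 list (7.31 to 8.62%) and 8.81% of the endogenous Sox2 list (8.17 to 9.49%). None of these intervals overlapped except those of Halo-Sox2 and endogenous Sox2.

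Set against each other, the libraries kept other proportions inside the stretches than outside. The ratio of Halo-Sox2M to Halo-Sox2 peaks was 1.03 inside (0.910 to 1.16) and 0.195 outside (0.183 to 0.207). The ratio of Halo-Sox2D to Halo-Sox2 peaks was 0.825 inside (0.725 to 0.940) and 2.22 outside (2.15 to 2.29). For Halo-Sox2 against endogenous Sox2 it was 0.827 inside (0.735 to 0.930) and 0.926 outside (0.894 to 0.959), which are intervals that overlap. Against endogenous Sox2 the ratio inside was 0.851 for Halo-Sox2M (0.757 to 0.956) and 0.683 for Halo-Sox2D (0.602 to 0.773). The truncated protein, which had the longest list, thus had the fewest peaks here, and the mutant, which had the shortest, had a ratio to Halo-Sox2 whose interval held 1. Peaks inside were no wider than elsewhere: the median width was 11 bp inside and 11 bp outside for each of the 3 fusions, and 10 bp inside and 12 bp outside for endogenous Sox2.

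The contig and the chromosome 9 window held most of these peaks. On the contig there were 274 Halo-Sox2M, 201 Halo-Sox2D, 247 Halo-Sox2 and 317 endogenous Sox2 peaks. In the chromosome 9 window there were 220, 162, 199 and 249 in the same order. Both therefore ranked the libraries alike, with endogenous Sox2 highest and Halo-Sox2D lowest. The chromosome 2 window held 24, 20, 29 and 15 peaks and the chromosome 14 window 18, 25, 24 and 22, where the ratios of every main pair had intervals reaching 1 except that of Halo-Sox2 to endogenous Sox2 on chromosome 2 (1.93, 1.003 to 3.88). The chromosome 11 and chromosome 8 windows went another way. They held 0 Halo-Sox2M peaks each, which allows up to 0.175% of that list (3 of 1711 peaks, Wilson limit 0.224%). Chromosome 11 held 16 Halo-Sox2D, 6 Halo-Sox2 and 25 endogenous Sox2 peaks, and chromosome 8 held 6, 16 and 2. The ratio of Halo-Sox2 to endogenous Sox2 peaks was 0.240 on chromosome 11 (0.0805 to 0.599) and 8.0 on chromosome 8 (1.88 to 71.7), so these windows leaned to opposite libraries.

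**Figure D1:**
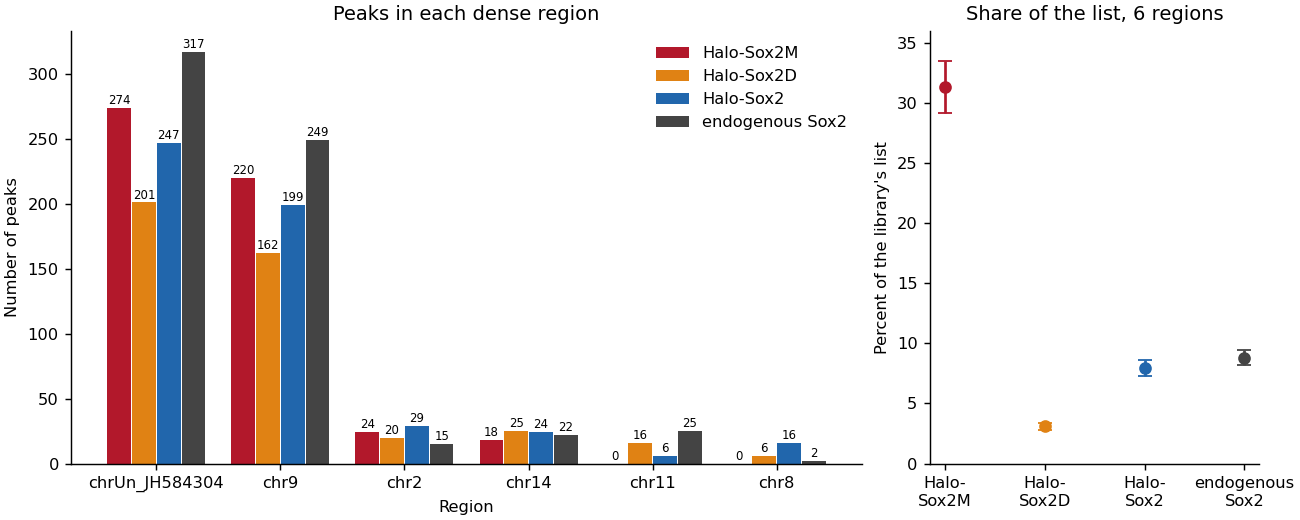
Number of peaks in each of the 6 stretches (left, bars with the count above each) and share of each library's list that lies in them (right, points with 95% Wilson intervals, percent), for Halo-Sox2M, Halo-Sox2D, Halo-Sox2 and endogenous Sox2. The counts on chrUn_JH584304 and chr9 are alike in order of size, 201 to 317 and 162 to 249, while the share is 31.3% for Halo-Sox2M and 3.11% for Halo-Sox2D.

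Peaks were spread very unevenly along the contig. When peaks of all libraries with gaps of up to 2 kb were grouped, 2 blocks stood out. The upper block, from 66571 to 114402, was 47.8 kb long and held 954 of the 1039 contig peaks: 268 of Halo-Sox2M, 162 of Halo-Sox2D, 240 of Halo-Sox2 and 284 of endogenous Sox2. The lower block, from 58930 to 62859, was 3.93 kb long and held 5, 25, 4 and 19 peaks in the same order. In this lower block most of the 53 peaks were those of Halo-Sox2D and endogenous Sox2.

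Below 50 kb the contig held few peaks, and they too came mainly from the same libraries. There were 0 of 274 Halo-Sox2M peaks, which allows a share of up to 1.09% (3 of 274 peaks, Wilson limit 1.38%). The other libraries had 13 of 201 Halo-Sox2D peaks (6.47%, 3.82 to 10.75%), 3 of 247 Halo-Sox2 peaks (1.21%, 0.414 to 3.51%) and 14 of 317 endogenous Sox2 peaks (4.42%, 2.65 to 7.28%). From 70 kb upward each 10 kb bin up to 110 kb held 51 to 70 Halo-Sox2M peaks, 33 to 38 Halo-Sox2D peaks, 41 to 59 Halo-Sox2 peaks and 55 to 70 endogenous Sox2 peaks. The gene table used gives no gene positions on this contig.

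In the chromosome 9 window all peaks lay in its first 38.2 kb, from 3000029 to 3038257. The first 10 kb of the window held 65 Halo-Sox2M, 43 Halo-Sox2D, 60 Halo-Sox2 and 66 endogenous Sox2 peaks, and the stretch between 20 and 30 kb held 58, 42, 55 and 64 in the same order. Beyond 30 kb, where the filled part is shorter than 10 kb, there were 35, 35, 29 and 49, so Halo-Sox2M and Halo-Sox2 peaks thinned out most towards its end. Per kb of the span there were 5.77 Halo-Sox2M peaks, 4.25 Halo-Sox2D peaks, 5.24 Halo-Sox2 peaks and 6.52 endogenous Sox2 peaks. Only 1 annotated gene lay in the window, the miRNA gene Mir101c at 3038669 to 3038743, just above the last peak, and it held 0 peaks. The nearest protein-coding gene, Alkbh8, which encodes a tRNA-modifying enzyme, lay at 3335231 to 3391154, 317 kb from the median peak centre.

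**Figure D2:**
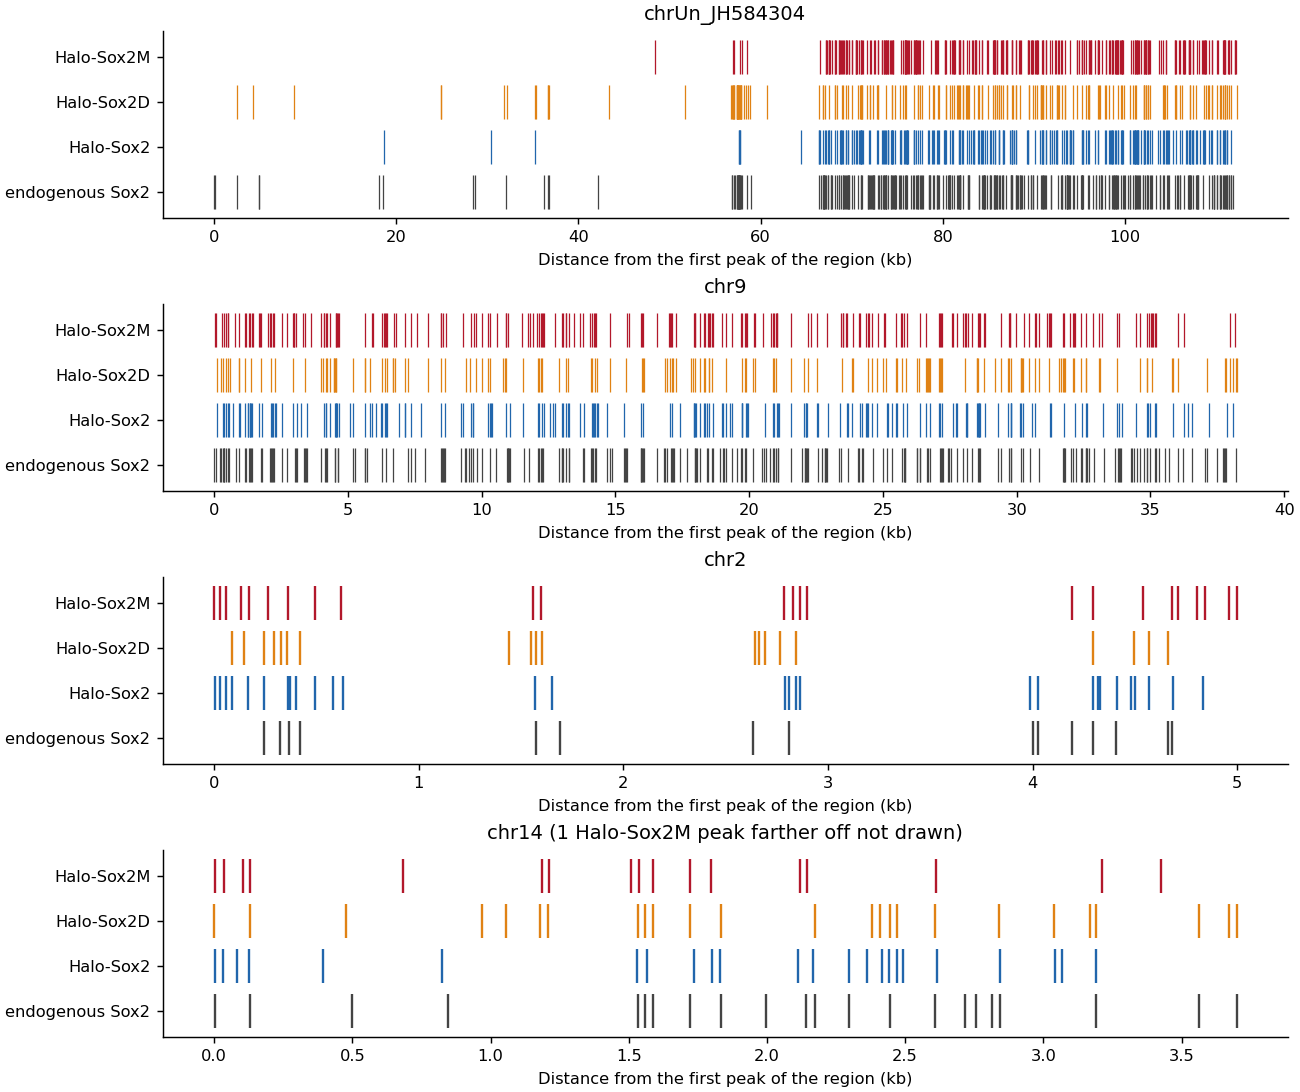
Places of the peaks of each library (rows, 1 line per peak centre) on chrUn_JH584304 and in the chr9, chr2 and chr14 windows, as distance in kb from the first peak of each stretch. The contig shows a nearly empty lower part, a short block of 53 peaks and a long block of 954 peaks, chr9 has peaks along all of its 38.2 kb, and chr2 shows 4 clusters.

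Spacing followed the number of peaks. On chromosome 9 the median distance between neighbouring centres of a library was 97.5 bp for Halo-Sox2M (95% order-statistic interval 81.5 to 136.5), 137.5 bp for Halo-Sox2D (103.5 to 188.5), 122.5 bp for Halo-Sox2 (93.0 to 154.0) and 89.5 bp for endogenous Sox2 (70.5 to 114.5). On the contig it was 119.5, 224.25, 137.75 and 105.0 bp in the same order. Neighbours closer than 20 bp were rare, with 4 to 8 such gaps per library on chromosome 9 and 6 to 15 on the contig. Steps of 20 to 40 bp were common. Among gaps of up to 200 bp in the 6 stretches, it made up 36.2% in the Halo-Sox2M library (31.3 to 41.3%) and 35.04% in the Halo-Sox2D library (29.2 to 41.4%). It made up 30.9% in the Halo-Sox2 library (26.2 to 35.98%) and 35.5% in the endogenous Sox2 library (31.1 to 40.1%). Outside the stretches this share was 30.2%, 25%, 28.5% and 39.9% in the same order, so the step was not particular to the dense stretches. The interval for Halo-Sox2D outside (22.6 to 27.5%) lay below the one inside, and those of the other libraries overlapped between inside and outside.

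Peak centres on the contig recurred at a regular distance. Periods of 20 to 1000 bp were scanned for the vector strength, which is 0 when places are spread evenly over the unit and 1 when all peaks share the same place in it. For the pooled contig peaks the highest value was 0.248, at 234 bp, and the highest away from it was 0.141, at 836 bp. Each library on its own also had its highest value at 234 bp: 0.235 for Halo-Sox2M, 0.309 for Halo-Sox2D, 0.245 for Halo-Sox2 and 0.270 for endogenous Sox2. Over the 981 periods the median was 0.0457 to 0.0604 in these libraries. The unit of the mouse major satellite is usually given as 234 bp, and whether the contig holds that satellite was not examined.

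Distances between centres of the same library showed the unit without any choice of phase. Counted in bins of 10 bp and summed over the libraries, 103 pairs lay 230 to 240 bp apart, against 33 and 34 pairs in the bins on either side. At 460 to 470 bp there were 113 pairs with 32 and 48 beside them, at 700 to 710 bp 102 pairs with 62 and 42, and at 930 to 940 bp 115 pairs with 37 and 35. These were the 4 fullest bins between 100 and 1000 bp, where the median bin held 49 pairs. In each library the bins at the 4 multiples held more pairs than both bins beside them: 25 to 32 for Halo-Sox2M, 12 to 27 for Halo-Sox2D, 23 to 30 for Halo-Sox2 and 30 to 49 for endogenous Sox2. Lower maxima stood about 30 bp to either side of the multiples, for example 89 pairs at 430 to 440 bp and 85 at 490 to 500 bp.

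**Figure D3:**
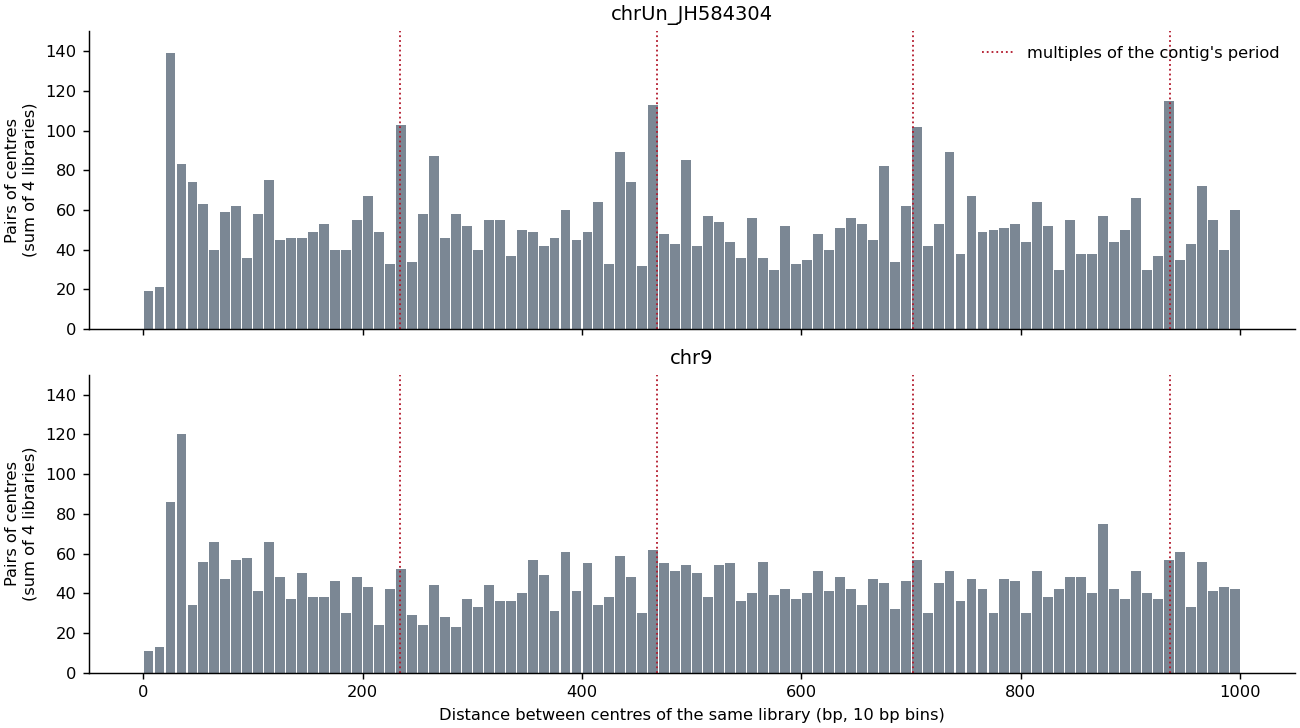
Number of pairs of peak centres of the same library by their distance (bp, 10 bp bins, 4 libraries summed) on chrUn_JH584304 and in the chr9 window, with dotted lines at multiples of 234 bp. On the contig the bins at the lines hold 102 to 115 pairs, and on chr9 they hold 52 to 62.

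Within the 234-bp unit the fullest bin was the same in the 4 libraries, while the mean place of endogenous Sox2 was lower than that of the fusions. With the unit cut into 13 bins of 18 bp, counted from coordinate 0 of the contig, the bin from 90 to 108 bp was the fullest in each library, a rank it shared with the bin from 108 to 126 bp for Halo-Sox2D. It held 41 of 274 Halo-Sox2M peaks, 30 of 201 Halo-Sox2D peaks, 34 of 247 Halo-Sox2 peaks and 40 of 317 endogenous Sox2 peaks, where an even spread would give 21.1, 15.5, 19 and 24.4. The emptiest bin was 180 to 198 bp for Halo-Sox2M (11 peaks), Halo-Sox2 (10) and endogenous Sox2 (6), and 198 to 216 bp for Halo-Sox2D (4). The mean place was 94 bp for Halo-Sox2M, 95 bp for Halo-Sox2D, 97 bp for Halo-Sox2 and 69 bp for endogenous Sox2 peaks. The means of the fusions thus lay within 3 bp of each other, but no error of a mean place was computed, so a match that close is not read from them. The bins from 18 to 36 and from 36 to 54 bp held 8.83 and 9.78% of the endogenous Sox2 contig peaks. For Halo-Sox2 these shares were 5.67 and 7.69%, for Halo-Sox2M 6.57 and 7.30%, and for Halo-Sox2D 6.97 and 4.98%. All these places rest on a unit of 234 bp, while 233.75 bp gave a higher pooled vector strength (0.268 against 0.248). With such a unit the places would drift along the contig, and how far the means depend on this was not tested. Whether this difference exceeds that between repeat libraries cannot be told from 1 library each.

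**Figure D4:**
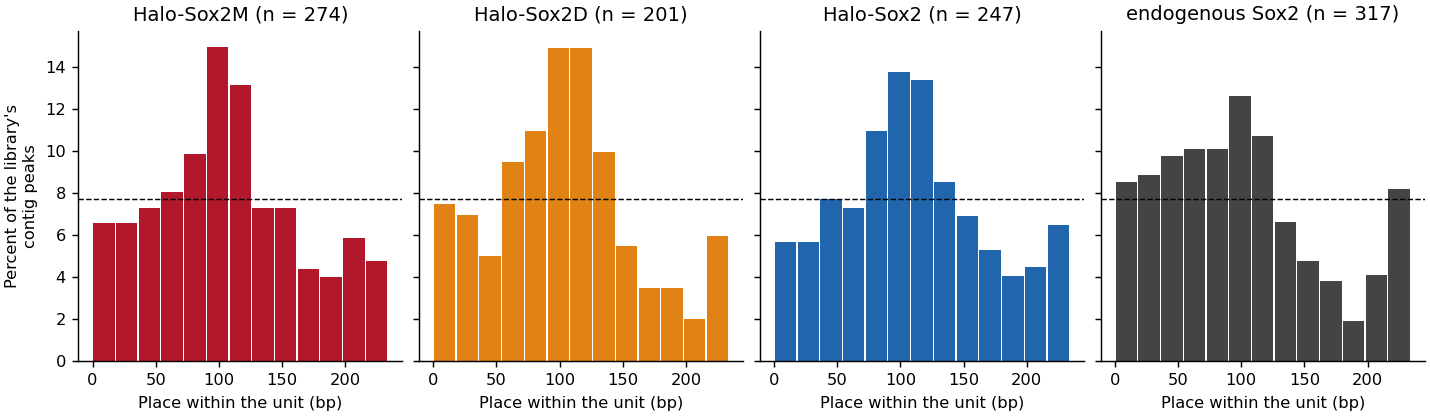
Share of each library's contig peaks (percent) by place within the 234-bp unit (bins of 18 bp, counted from coordinate 0 of the contig), with a dashed line at an even spread. The bin from 90 to 108 bp holds 41, 30, 34 and 40 peaks of Halo-Sox2M, Halo-Sox2D, Halo-Sox2 and endogenous Sox2.

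Of the 5 contig positions ranked by libraries and then peaks, the leading pair were alike in layout. The first, chrUn_JH584304:93126-93166, held 2 Halo-Sox2M peaks (93127 to 93134 and 93149 to 93151), 2 Halo-Sox2D peaks (93127 to 93136 and 93155 to 93165), 2 Halo-Sox2 peaks (93126 to 93133 and 93162 to 93164) and 2 endogenous Sox2 peaks (93126 to 93135 and 93166). The next, chrUn_JH584304:84006-84046, held 2 Halo-Sox2M peaks (84007 to 84014 and 84029 to 84031), 1 Halo-Sox2D peak (84008 to 84016), 2 Halo-Sox2 peaks (84006 to 84014 and 84043 to 84044) and 2 endogenous Sox2 peaks (84006 to 84016 and 84046). Counted from the start of its position, the second peak of Halo-Sox2M began at 23 bp and that of endogenous Sox2 at 40 bp in both places, and that of Halo-Sox2 at 36 and 37 bp. All 4 libraries thus shared the first element, and Halo-Sox2M, Halo-Sox2 and endogenous Sox2 each kept the place of their second peak to within 1 bp. This likeness was noticed after the values were seen, and the next 3 positions, also held by all 4 libraries, did not have this layout. At chrUn_JH584304:87798-87847, for example, endogenous Sox2 had peaks at 87798 to 87811 and 87836 to 87844. The 2 positions lie 9120 bp apart, or 233.8 bp for each of 39 units. The 39 is the whole number that brings this value nearest to 234 bp. Over so long a distance some whole number always comes close, so the value is no separate measure of the unit.

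The scan found no such unit on chromosome 9. A high value needs the same phase along the whole stretch, so the scan cannot tell a missing unit from one whose phase shifts. The highest vector strength of the 830 pooled peaks on chromosome 9 was 0.142, at 417 bp, and 0.140 was reached at 633 bp. At 234 bp it was 0.0421, below the median over all periods, 0.046, and in single libraries it was 0.0154 to 0.112. The highest value fell at 39 bp in the Halo-Sox2M list, 383 bp in Halo-Sox2D, 172 bp in Halo-Sox2 and 745 bp in endogenous Sox2, so the libraries had no period in common. Pair distances gave 52 pairs at 230 to 240 bp with 42 and 29 beside them, 62 at 460 to 470 bp with 30 and 55, 57 at 700 to 710 bp with 46 and 30, and 57 at 930 to 940 bp with 37 and 61, where the median bin held 42. The bins at these multiples were thus above the median bin, and at 3 of the 4 multiples above both neighbours, but by less than on the contig. Of the 2 large stretches, the contig alone had the same best period in every library. Over the 24 to 89 pooled peaks of the other 4 windows the highest vector strengths were 0.301 to 0.700, at periods of 27, 34, 168 and 664 bp. A scan of so few places returns high values at many periods, and no period is read from them.

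Across libraries the same places returned in a larger share of peaks over the 6 stretches together than outside them. By overlap of at least 1 bp, 201 of the 536 Halo-Sox2M peaks met a Halo-Sox2 peak (37.5%, 33.5 to 41.7%), against 16.2% of the whole Halo-Sox2M list and 6.47% outside the stretches (5.20 to 8.02%). Of the 430 Halo-Sox2D peaks, 166 met a Halo-Sox2 peak (38.6%, 34.1 to 43.3%), against 3.38% of the whole list and 2.25% outside (2.008 to 2.51%). Of the 521 Halo-Sox2 peaks, 200 met an endogenous Sox2 peak (38.4%, 34.3 to 42.6%), against 9.27% of the whole list and 6.76% outside (6.15 to 7.42%). The intervals of these 3 shares inside overlapped. Peaks placed more closely meet more often, and how far density alone raises these shares was not tested.

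The other pairs and directions covered a wider range. Of the Halo-Sox2 peaks in the stretches 38.6% met a Halo-Sox2M peak and 31.7% a Halo-Sox2D peak, against 4.24% and 7.12% of the whole Halo-Sox2 list. Of the endogenous Sox2 peaks there 32.2% met a Halo-Sox2 peak, against 8.63% of that whole list. The remaining pairs gave 28.7% of Halo-Sox2M peaks meeting Halo-Sox2D (whole list 11%) and 34.7% meeting endogenous Sox2 (13.2%). For Halo-Sox2D they gave 35.8% with a Halo-Sox2M peak (1.36%) and 44.7% with an endogenous Sox2 peak (4.58%). For endogenous Sox2 they gave 29.7% with a Halo-Sox2M peak (3.17%) and 30.3% with a Halo-Sox2D peak (9.02%). The range over all ordered pairs was thus 28.7% (25.06 to 32.7%) to 44.7% (40.02 to 49.4%) inside the stretches, with intervals that do not overlap at its ends.

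Most of what Halo-Sox2M shared with the other libraries lay here. Of the 277 Halo-Sox2M peaks that met a Halo-Sox2 peak anywhere, 201 were in the 6 stretches (72.6%, 67.0 to 77.5%). Of those that met a Halo-Sox2D peak 154 of 189 were (81.5%, 75.3 to 86.4%), and of those that met an endogenous Sox2 peak 186 of 226 (82.3%, 76.8 to 86.7%). These shares stand beside the 31.3% of the whole Halo-Sox2M list that lay in the stretches. Of the 467 Halo-Sox2D peaks with a Halo-Sox2 peak 166 were there (35.5%, 31.3 to 39.99%), beside 3.11% of the whole Halo-Sox2D list. Of the 608 Halo-Sox2 peaks with an endogenous Sox2 peak 200 were there (32.9%, 29.3 to 36.7%), beside 7.94% of the whole Halo-Sox2 list.

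When centres of all libraries within 20 bp were joined, the 2117 peaks fell into 1086 positions, of which 546 held peaks of 2 or more libraries (50.3%, 47.3 to 53.2%), against 7.99% of all positions in the genome. Another count, of positions with 3 or more libraries, was 262 (24.1%, 21.7 to 26.8%, against 1.77% in the genome). All 4 libraries had peaks in 72 positions (6.63%, 5.30 to 8.27%, against 0.308%), and the rest of the genome had 7 such positions. Peaks joined in this way need not overlap. At chr9:3000361-3000419, which is among the 72, the Halo-Sox2M peak overlapped no other. Joining can chain neighbours, and the widest joined position spanned 98 bp, while the median was 15 bp. Closely placed peaks of different libraries are also joined more often. How much of the excess over the genome's shares comes from density alone was not tested. Of the 72 positions, 32 were on chromosome 9, 31 on the contig, 5 on chromosome 14 and 4 on chromosome 2. Positions of a single library were 136 of Halo-Sox2M, 86 of Halo-Sox2D, 107 of Halo-Sox2 and 211 of endogenous Sox2, together 540 of the 1086 positions. Outside the stretches they were 990, 12177, 4910 and 4964 in the same order, together 23041 of 24543.

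Pairs of libraries were also compared by distance. Of all pairs of centres of different libraries up to 100 bp apart, 26.7% on the contig lay within 10 bp and 5.75% at 10 to 20 bp, and the shares rose again to 14.9% at 20 to 30 bp and 11.5% at 30 to 40 bp. On chromosome 9 the same bins held 22.7, 5.25, 12.4 and 15.4%, and in the other 4 windows together 23.9, 5.87, 18.2 and 11.1%. Outside the stretches the shares fell steadily, with 21.1, 13.3, 11.8 and 9.76%. The dip at 10 to 20 bp was thus seen in the dense stretches and not in the sum over the rest of the genome. That sum came mainly from pairs without Halo-Sox2M: outside, Halo-Sox2M gave 69, 41, 49 and 30 pairs with Halo-Sox2 and 35, 26, 28 and 20 with Halo-Sox2D, each with a smaller dip. With endogenous Sox2 it gave 35, 32, 23 and 26 pairs there, with no dip at 10 to 20 bp. For Halo-Sox2M with Halo-Sox2 there were 98, 28, 57 and 45 pairs in these bins on the contig. For Halo-Sox2D with Halo-Sox2 there were 88, 11, 41 and 34, and for Halo-Sox2 with endogenous Sox2 106, 18, 57 and 41.

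**Figure D5:**
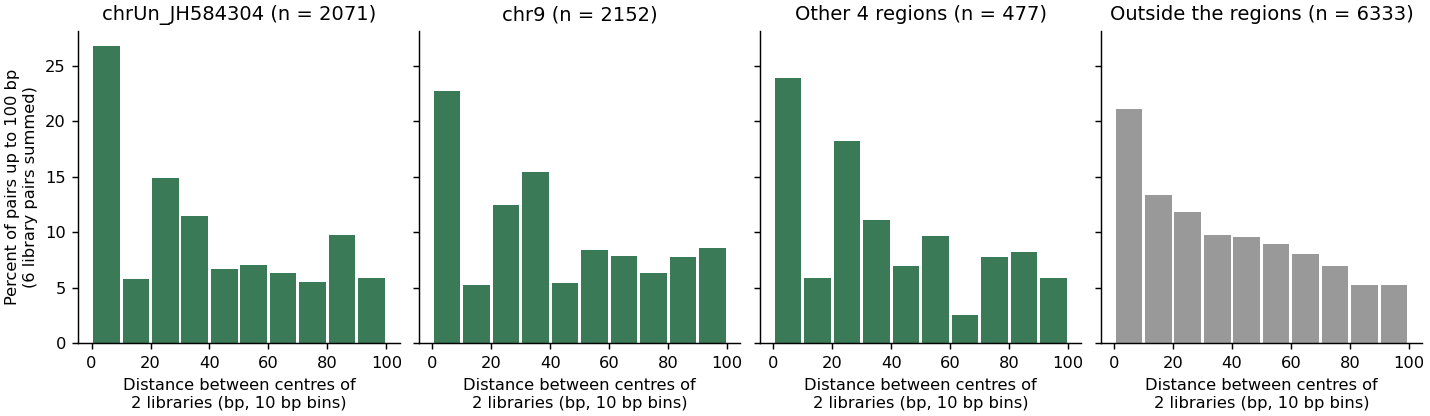
Distances between peak centres of different libraries (bp, 10 bp bins), as percent of the pairs up to 100 bp, with the 6 library pairs summed, on chrUn_JH584304, in the chr9 window, in the other 4 windows and outside the stretches. The first bin holds 22.7 to 26.7% of pairs in the stretches and 21.1% outside, and the next holds 5.25 to 5.87% in the stretches and 13.3% outside.

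On chromosome 9 the position with most peaks among those of all 4 libraries was chr9:3004510-3004607. It chained 12 peaks over 98 bp, with 2, 5, 3 and 2 from Halo-Sox2M, Halo-Sox2D, Halo-Sox2 and endogenous Sox2. The next by the same order, chr9:3000361-3000419, held 7 peaks. Those of Halo-Sox2D (3000377 to 3000389), Halo-Sox2 (3000384 to 3000394) and endogenous Sox2 (3000375 to 3000388) met, and that of Halo-Sox2M (3000407 to 3000416) met none. At chr9:3029794-3029846 the peaks of Halo-Sox2D (3029833 to 3029843), Halo-Sox2 (3029835 to 3029846) and endogenous Sox2 (3029832 to 3029843) again met. The Halo-Sox2M peak there (3029794 to 3029804) lay at the other edge, where it touched a second Halo-Sox2 peak (3029804 to 3029822) and a second endogenous Sox2 peak (3029803 to 3029808). Other ranked positions differed: at chr9:3018472-3018521 a Halo-Sox2M peak (3018514 to 3018521) overlapped a peak of each other library. These were peaks of Halo-Sox2 (3018515), Halo-Sox2D (3018516) and endogenous Sox2 (3018503 to 3018514). At chr9:3031779-3031833 Halo-Sox2M peaks overlapped peaks of Halo-Sox2D and endogenous Sox2 but not that of Halo-Sox2.

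The chromosome 2 window held 4 joined positions of all 4 libraries, and at 1 of them the peaks matched almost to the base. All its peaks lay between 98662284 and 98667296, in 4 clusters of 0.640, 0.268, 0.276 and 1.02 kb, which held 9, 2, 4 and 9 Halo-Sox2M peaks, 7, 4, 5 and 4 Halo-Sox2D peaks, 12, 2, 4 and 11 Halo-Sox2 peaks and 4, 2, 2 and 7 endogenous Sox2 peaks. Every library was present in every cluster. In the uppermost cluster Halo-Sox2M and Halo-Sox2 had a peak with the same bounds, 98666578 to 98666593, Halo-Sox2D had one at 98666579 to 98666593 and endogenous Sox2 one at 98666578 to 98666596. At the other positions of all 4 libraries in the window, peaks of some libraries did not overlap. Of the 24 Halo-Sox2M peaks here, 11 met a Halo-Sox2 peak (45.8%, whole list 16.2%). Only 4 met a Halo-Sox2D peak (16.7%, whole list 11%) and 4 an endogenous Sox2 peak (16.7%, whole list 13.2%). The only gene annotated in the window, the pseudogene Gm13806 (98601023 to 98601457), held 0 peaks, and the nearest protein-coding gene was Lrrc4c, which encodes a synaptic adhesion protein, 1030 kb from the median peak centre.

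On chromosome 14, 88 of the 89 peaks lay in 3.71 kb, from 19415758 to 19419471, and 1 Halo-Sox2M peak stood apart at 19484347 to 19484366. All 4 libraries had peaks in 5 joined positions there. At the lowest, peaks of Halo-Sox2M (19415759 to 19415777), Halo-Sox2D (19415760 to 19415768), Halo-Sox2 (19415758 to 19415773) and endogenous Sox2 (19415761 to 19415770) lay on each other. The next, chr14:19415883-19415901, had Halo-Sox2D and endogenous Sox2 peaks with the same bounds, around those of Halo-Sox2M (19415889 to 19415898) and Halo-Sox2 (19415884 to 19415894). At 19417481 to 19417489 Halo-Sox2M and Halo-Sox2D had peaks with the same bounds, inside the endogenous Sox2 peak at 19417479 to 19417491, while the Halo-Sox2 peak covered the single base 19417500. Neither annotated gene of the window, the pseudogene Gm9637 and the lncRNA gene Gm41101, held a peak, and the nearest protein-coding gene was Gm2244, 116 kb from the median centre.

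The chromosome 11 window is the one with peaks in an annotated protein-coding gene. Sfi1, which encodes a centrin-binding protein of the centrosome, runs from 3131850 to 3203347, and 45 of the 47 peaks lay in its body: 0 of Halo-Sox2M, 16 of Halo-Sox2D, 6 of Halo-Sox2 and 23 of endogenous Sox2. The gene table does not tell exons from introns. A cluster of 1.44 kb, from 3192805 to 3194239, held 0, 10, 4 and 16 of these peaks. The other 2 peaks, both of endogenous Sox2, lay below the gene at 3100476 to 3100485 and 3101288 to 3101294. One Halo-Sox2D peak of the gene, at 3150183 to 3150192, also lay in the pseudogene Gm11400. Of 37 positions here 4 held 2 or more libraries (10.8%, 4.29 to 24.7%), a share near the 7.99% of all positions in the genome. At the 1 position of 3 libraries, chr11:3193003-3193074, the peaks of Halo-Sox2D, Halo-Sox2 and endogenous Sox2 alternated without overlap except for the last Halo-Sox2D and endogenous Sox2 peaks.

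The chromosome 8 window was mainly a Halo-Sox2 stretch. Of its 24 peaks, 19 lay in 2610005L07Rik, a transcribed pseudogene from 20385782 to 20424814: 0 of Halo-Sox2M, 4 of Halo-Sox2D, 13 of Halo-Sox2 and 2 of endogenous Sox2. The fullest cluster, from 20389184 to 20389434, held 2 Halo-Sox2D and 6 Halo-Sox2 peaks. At 20389381 to 20389401 a Halo-Sox2D peak (20389386 to 20389401) overlapped a Halo-Sox2 peak (20389381 to 20389392). Both endogenous Sox2 peaks (20394574 to 20394592 and 20394676 to 20394680) lay in a cluster up to 20394709, with 1 Halo-Sox2D and 2 Halo-Sox2 peaks. Of 18 positions 4 held 2 libraries (22.2%, 9.001 to 45.2%, against 7.99% of all positions in the genome for 2 or more) and 0 held more, against 1.77%. Gm15319, the one protein-coding gene in the window, held 0 peaks, as did the pseudogene Gm7807. No peak of the 6 stretches lay in any of the RefSeq promoter windows used here, so no promoter sequence is shown.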

How the data were processed

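The authors deposited 1 list of peaks per library, each line a chromosome, a start and an end without score or read number. Per the submitters' processing notes, the read aligner Bowtie2 and the mm10 build belong to the processing. The peak caller, its threshold, tool versions and how reads with several matches were handled are not stated in the sources used here. The deposited values are therefore coordinates of no other unit, read as BED and printed from base 1.

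Regions and lists were chosen with earlier results of these data known. All counts, overlaps and distances were computed with Python 3.11.15, numpy 2.4.6, pandas 2.3.3 and scipy 1.17.1. A peak was shared when 1 bp or more overlapped a peak of the other library. Counts of pair distances were added after the data were seen. Period scans used whole-number periods, pooled per region and per library with at least 20 peaks. For each region up to 5 positions could be named, those with most libraries first, then most peaks, and genes were named where a peak centre lay in them, or else the nearest protein-coding gene. Genes of the windows without a peak were named beside them. Other positions were named after their values were seen. Gene positions came from RefSeq's GRCm38.p6 table. Simulated lists with planted periods and overlaps were used to test the code.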

Additional observations from a re-analysis of the deposited data

How the results depend on the processing

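Merging peaks that touch, joining centres within 20 bp and widening the 5 windows by 100 kb on both sides kept each count of peaks in the regions within 1.5 times, at 510 to 551 for Halo-Sox2M, 418 to 450 for Halo-Sox2D, 496 to 535 for Halo-Sox2 and 608 to 637 for endogenous Sox2. The medians of spacing also stayed within their intervals when centres were joined. The shares of the lists rest on the contig and on chromosome 9. Without the contig they were 15.3% for Halo-Sox2M, 1.66% for Halo-Sox2D, 4.18% for Halo-Sox2 and 4.38% for endogenous Sox2. Without the chromosome 9 window they were 18.5, 1.94, 4.91 and 5.33%, and over autosomes, X and Y alone 18.6, 1.69, 4.42 and 4.59% in the same order. Leaving out any other window kept them within their intervals. The shares of peaks meeting another library moved with the criterion. At a reciprocal overlap of 50% they were 20.9% for Halo-Sox2M with Halo-Sox2, 27.0% for Halo-Sox2D with Halo-Sox2 and 24.2% for Halo-Sox2 with endogenous Sox2. With centres within 50 bp they were 69.2, 67.7 and 69.9%. Centres within 10 bp, or leaving out any window, kept them within their intervals. The contig's period was 234 bp from starts, ends, joined positions and each library, and 233.75 bp in steps of 0.25 bp, added after the data were seen. On chromosome 9 it moved to 633 bp (ends), 571 bp (joined positions) and 39, 383, 172 and 745 bp (Halo-Sox2M, Halo-Sox2D, Halo-Sox2 and endogenous Sox2 on their own). On chromosome 2 it moved to 306 bp (starts), 43 bp (joined), 35 bp (Halo-Sox2M) and 612 bp (Halo-Sox2D). On chromosome 14 it moved to 118 bp (starts, ends and joined positions), 179 bp (Halo-Sox2D) and 769 bp (Halo-Sox2), and on chromosome 11 to 975 bp (starts) and 360 bp (endogenous Sox2). The cause of these moves was not tested. With no score in the lists, no stricter threshold on peaks could be tried, and with 1 library per group no replicate could be left out. No paired analysis was possible because each group has 1 library. Read depth, which the lists do not give, limits every count.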
